A study of Mus musculus with 2 samples.

Results

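Nuclear receptors are transcription factors that many small lipid-soluble molecules switch on or off. Each binds DNA through zinc fingers and carries a domain that can hold a ligand such as thyroid hormone, retinoic acid, an oxysterol, a bile acid or a sex steroid. Several of them bind as heterodimers with a retinoid X receptor, and without ligand some recruit corepressor complexes that a ligand exchanges for coactivators. The adrenal gland is known in this family for steroidogenic factor 1 (Nr5a1) and DAX-1 (Nr0b1), which direct its cortex. The genes described here are 37 other nuclear receptor genes; the REV-ERB genes of the circadian clock are not among them. They were taken by name from the gene annotation and are 37 of 21755 protein-coding genes on chromosomes 1 to 19 and X.

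Accessible chromatin was measured by DNase-seq, in which DNase I cuts open DNA, in adrenal glands of female mice aged 4 days. The mice were B6CASTF1/J, a first-generation hybrid of 2 inbred strains, and carried no treatment or engineered allele that the labels mention. There was 1 group with 2 libraries, biological replicates 1 and 2. The labels mention 3 females per sample and give both samples the same donor identifier, and they do not say how animals were pooled. The difference between the libraries may therefore be technical. With 1 group there is no comparison of conditions and no test, so each value is given per library, replicate 1 first. The value of a peak is the signal the authors deposited for it, whose scaling the sources used here do not state. They state no read depth either, so no counting error can be attached to a peak. The longer list of peaks held 46031 peaks in replicate 1 and 87387 in replicate 2, and the shorter, stricter lists held 27765 and 50406. Of the tissue's own markers, 4 of 10 adrenal cortex genes and 6 of 10 medulla genes had a peak at a transcription start site (TSS) in both libraries. Over all protein-coding genes the share was 61.3%, so neither adrenal share was above it. That share is not matched for the number of TSSs. The median was 1.5 TSSs for the cortex genes and 2 for the medulla genes, against 3 over all genes. Of all genes, 30.3% of those with 1 TSS and 49.1% of those with 2 to 3 had such a peak. The part of TSS number in the adrenal shares was not tested. Of the cortex genes, Mc2r, Hsd3b1 and Cyp11b1 had none in either library. Star and Cyp21a1 had one in replicate 2 alone, and Cyp11b2 in replicate 1 alone. Of the medulla genes, the defining Th, Dbh and Pnmt had none in either library. Of the markers of other cells, 0 of 6 for liver, 2 of 6 for kidney and 2 of 5 for adipocytes had one in both libraries. So did 1 of 4 for retina, 1 of 4 for leukocytes and 2 of 4 for endothelium. The tissue is a mixture of cell types, so fewer cells of a type and less open chromatin per cell cannot be told apart.

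By the mean signal of both libraries, the strongest TSS peaks of the family stood at Nr2c2, Esrra and Ppard. In replicate 1 alone Rxrb (4.43) exceeded Esrra (3.93). Nr2c2 encodes testicular receptor 4, an orphan receptor made in most tissues. Esrra encodes oestrogen-related receptor alpha, a regulator of mitochondrial genes, and Ppard encodes PPAR delta, a fatty acid sensor. Their replicate 2 peaks are shown because they carry the highest mean signals of the family. Capitals mark bases inside a footprint, a short stretch protected from cutting, in both libraries. The reference is GRCm38.p6, the build of mm10, and each sequence is on the strand of its gene. The Nr2c2 peak lies at chr6:92092181-92092380 on the plus strand, in an intron of one transcript and just upstream of the TSS of another. The Esrra peak lies at chr19:6921821-6922040 on the minus strand, and the Ppard peak at chr17:28232521-28232760 on the plus strand, each over or just upstream of a TSS.
Nr2c2: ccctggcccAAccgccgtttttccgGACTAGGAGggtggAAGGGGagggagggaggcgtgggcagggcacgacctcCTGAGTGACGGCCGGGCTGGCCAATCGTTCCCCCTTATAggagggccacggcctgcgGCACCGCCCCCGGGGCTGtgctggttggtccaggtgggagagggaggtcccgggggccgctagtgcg
Esrra: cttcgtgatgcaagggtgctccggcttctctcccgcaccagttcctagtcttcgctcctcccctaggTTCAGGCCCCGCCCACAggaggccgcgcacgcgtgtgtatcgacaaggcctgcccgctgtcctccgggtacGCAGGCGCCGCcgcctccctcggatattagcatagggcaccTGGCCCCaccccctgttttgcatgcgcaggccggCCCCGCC
Ppard: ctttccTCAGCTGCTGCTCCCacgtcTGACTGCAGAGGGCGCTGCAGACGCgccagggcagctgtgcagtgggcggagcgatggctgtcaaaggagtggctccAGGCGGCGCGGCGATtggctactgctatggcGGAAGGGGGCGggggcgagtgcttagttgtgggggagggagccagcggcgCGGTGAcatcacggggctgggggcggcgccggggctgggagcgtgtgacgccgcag

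Of these peaks, 74 of 200 bases in Nr2c2, 42 of 220 in Esrra and 72 of 240 in Ppard were in footprints of both libraries. All 3 held a GC box, GGGCGG on either strand, and in each at least 1 box touched capitals. Nr2c2 and Ppard also held a CCAAT box that touched capitals. The longest protected stretch in Nr2c2 spanned 39 bases in replicate 1 and 41 in replicate 2, at nearly the same position.

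A TSS peak, meaning a peak of the longer list that overlapped a window of 1 kb to either side of any annotated TSS, was found in both libraries at 30 of 37 receptor genes (81.1%). The background over all protein-coding genes was 61.3%. In the stricter lists the count was 25, against a background of 54.8%, and the 5 genes lost were Rarb, Rxrg, Esrrb, Pgr and Nr0b2. Nr1i3 and Nr2f2 had a TSS peak in replicate 2 alone (2 genes, background 5.0%) and Hnf4g in replicate 1 alone (1 gene, background 0.869%). Nr1i2, Hnf4a, Nr2e1 and Nr2e3 had none in either library (4 genes, background 32.8%).

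The receptor genes also have more start sites than others. They had a median of 6 annotated TSSs and all genes a median of 3, so more windows were searched per receptor gene. Among genes with 6 or more TSSs, 18 of 21 receptor genes (85.7%) and 90.1% of all genes were open in both libraries. Among genes with 4 to 5 TSSs the shares were 7 of 9 (77.8%) and 76.0%. Among genes with 2 to 3 TSSs they were 4 of 5 (80%) and 49.1%, and among genes with 1 TSS 1 of 2 and 30.3%. Counted by TSS, 110 of 220 receptor TSSs (50%) and 49.6% of all 93196 TSSs had a peak in both libraries. With the 5′-most TSS of each gene alone, 22 of 37 receptor genes (59.5%) remained, beside a background of 56.8%. The share of open receptor genes was thus near that of other genes for the 30 receptors with 4 or more TSSs and above it for the 7 with fewer.

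Signal over the open members was below that of other open genes. The median signal of the strongest TSS peak was 1.53 and 2.98 over the 30 receptor genes open in both libraries. Over all genes open in both it was 2.11 and 4.33. Of the 30, 4 were above the 90th percentile of genes with a TSS peak in both libraries: Ppard, Rxrb, Nr2c2 and Esrra. At the other end, 10 were below the 25th percentile in both: Rarb, Pparg, Nr1h4, Vdr, Rxrg, Esr1, Esrrb, Pgr, Nr5a2 and Nr0b2. All 30 had the higher signal in replicate 2, as did 99.1% of all genes open in both, with a median ratio of 2.00 in the receptors and 2.05 over all genes. The order of the 30 genes was much the same in both libraries (Spearman's rho 0.953, n = 30 genes that share the 2 libraries).

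The receptors were grouped by textbook breadth of expression into 10 broadly expressed, 12 intermediate and 15 tissue-restricted genes. The broad genes were Thra, Rara, Ppard, Nr1h2, Rxra, Rxrb, Nr2c1, Nr2c2, Nr2f6 and Esrra. The restricted genes were Rorb, Nr1h4, Nr1i2, Nr1i3, Hnf4a, Hnf4g, Rxrg, Nr2e1, Nr2e3, Esr2, Esrrb, Pgr, Nr5a2, Nr6a1 and Nr0b2. The classes were chosen with earlier results of these data known, so the contrast between them is not an independent result. All 10 broad genes were open in both libraries and in both stricter lists, with median signals of 2.35 and 5.29. Of the intermediate genes, 11 of 12 were open, 10 of them in the stricter lists, with medians of 1.39 and 2.18. Of the restricted genes, 9 of 15 were open, 5 of them in the stricter lists, with medians of 0.853 and 1.61. The 60% of restricted genes that were open is near the background share of 61.3%, which is not matched for the number of TSSs. The median number of TSSs was 7.5 for broad, 6 for intermediate and 4 for restricted genes. Of all genes, 90.1% of those with 6 or more TSSs and 76.0% of those with 4 to 5 were open. The part of TSS number in the difference between the classes was not tested. The classes overlapped in signal, from 1.56 to 5.46 for broad and 0.478 to 1.65 for restricted genes in replicate 1.

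**Figure D1:**
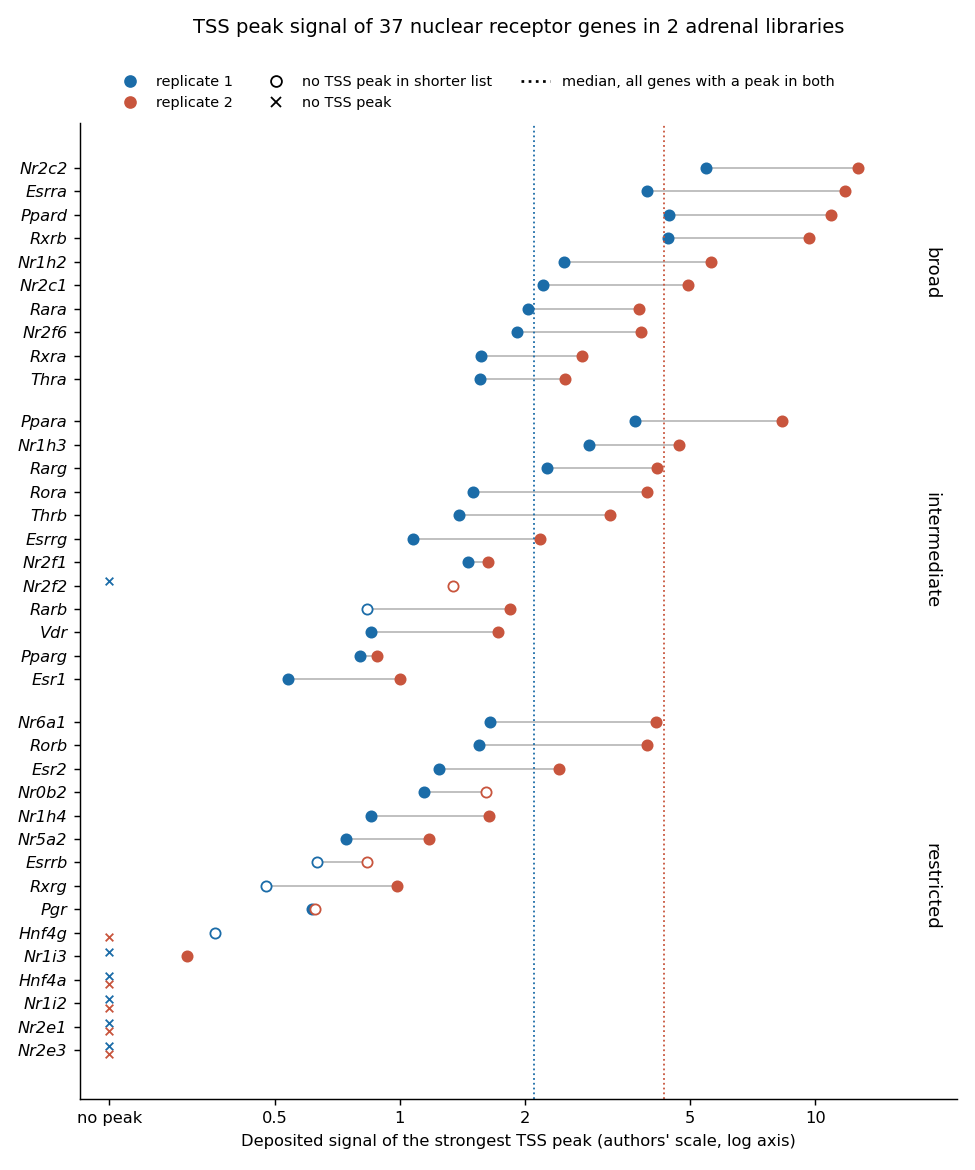
Deposited signal of the strongest TSS peak (log axis) of each of the 37 genes, by breadth class, in replicate 1 (blue) and replicate 2 (red). Open circles had no TSS peak in the stricter list, crosses mark no TSS peak, and dotted lines are the medians over all genes open in both libraries (2.11 and 4.33). All 10 broad genes carry filled circles in both libraries, and all genes without any TSS peak are restricted ones.

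Among the thyroid hormone receptors, Thra, the form of heart, bone and brain, gave signals of 1.56 and 2.5. Thrb, the form that carries hormone feedback in the pituitary and most liver responses, gave 1.39 and 3.21. Both were open in both libraries and below the median of open genes. The 3 retinoic acid receptors were open as well, at 2.04 and 3.76 for Rara, 0.836 and 1.85 for Rarb, and 2.26 and 4.17 for Rarg. None of the 3 had a peak in both libraries at its 5′-most TSS. The 2 Rara values are from peaks at different TSSs, centred 9842 bp from the first TSS in replicate 1 and 32582 bp in replicate 2. Rarb, itself a target of retinoic acid, lay below the 25th percentile of open genes, and its replicate 1 peak was not in the stricter list.

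The PPARs sense fatty acids and their derivatives. Ppard gave 4.44 and 10.9, and Ppara, the driver of fatty acid oxidation in liver and heart, gave 3.69 and 8.33. Pparg, the regulator of fat cell formation, gave 0.802 and 0.880, close to the low end of the open genes (11.3th and 7.86th percentile). Ppara and Ppard thus exceeded Pparg by a wide margin in each library. Rora gave 1.5 and 3.94 and Rorb, a gene of retina and brain, 1.55 and 3.94. Rorb was therefore open at a level similar to Rora, although it belongs to the restricted class.

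The liver X receptors respond to oxysterols. Nr1h2, the ubiquitous form, gave 2.48 and 5.62, and Nr1h3, the form of liver, fat and macrophages, 2.85 and 4.70. The Nr1h3 peak also lay within 1 kb of TSSs of Acp2 and Gm13783, so it cannot be given to Nr1h3 alone. Nr1h4 encodes FXR, the bile acid receptor, and gave 0.853 and 1.64. Its strongest peaks were 35 bp upstream of the TSS in replicate 1 and 495 bp downstream in replicate 2. Vdr, the vitamin D receptor, gave 0.853 and 1.72. Of the xenobiotic receptors of liver and gut, Nr1i2 (PXR) had no TSS peak and Nr1i3 (CAR) had one of 0.308 in replicate 2 alone.

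The retinoid X receptors are the common heterodimer partners. Rxrb gave 4.43 and 9.68, but its peak lay within 1 kb of TSSs of Slc39a7 and Gm20427. Rxra gave 1.57 and 2.74, and Rxrg, the form of muscle and brain, 0.478 and 0.985. Rxrg held no footprint in replicate 1 and 1 in replicate 2, and its replicate 1 peak was not in the stricter list. The 3 partners thus spanned most of the family's range. Of the testicular receptors, Nr2c2 (TR4) gave 5.46 and 12.6, at the 99.6th and 99.1th percentile, and Nr2c1 (TR2) gave 2.21 and 4.95.

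The COUP transcription factors are orphan receptors of development. Nr2f6 gave 1.92 and 3.80 and Nr2f1 1.46 and 1.63. The Nr2f1 peak lay within 1 kb of the TSS of the non-coding gene A830082K12Rik. Nr2f2, known from mesenchyme and veins, had no TSS peak in replicate 1 and one of 1.35 in replicate 2. A stronger peak of Nr2f2, with signals of 2.64 and 3.99, lay just outside the window: its replicate 1 peak began 8 bp beyond the window's edge. It held 2 footprints in each library. With windows of 2.5 kb, Nr2f2 and Nr2e3 were called and the count became 32 (background 63.7%).

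For oestrogen, Esr1 gave 0.537 and 1.00 and Esr2 1.25 and 2.42. The 2 Esr1 values are from peaks at different TSSs, centred 100906 bp from the first TSS in replicate 1 and 887 bp in replicate 2. The Esr2 peak was centred 741 bp upstream of the TSS in both libraries and fell outside windows of 500 bp. Pgr, the progesterone receptor and a known oestrogen target, gave 0.614 and 0.625, the smallest replicate 2 signal among the 30. Of the oestrogen-related receptors, orphan receptors of energy metabolism, Esrra gave 3.93 and 11.8 and Esrrg 1.07 and 2.18. Esrrb, known from embryonic stem cells, gave 0.631 and 0.836. Its peaks in the 2 libraries did not overlap each other, neither was in a stricter list, and its windows held no footprint. Without Esrrb, the count of genes with overlapping TSS peaks was 29.

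The remaining open genes are restricted ones. Nr6a1, the germ cell nuclear factor, gave 1.65 and 4.13, with its strongest peaks at different TSSs in the 2 libraries. Nr5a2 (LRH-1) is the liver and gonad relative of steroidogenic factor 1 and gave 0.742 and 1.18. Nr0b2 encodes SHP, a receptor without a DNA-binding domain that represses bile acid synthesis. It gave 1.14 and 1.61, and its replicate 2 peak was not in the stricter list.

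Most open members were open at some of their TSSs and closed at others. Only Esrra, Nr0b2 and Pgr had a peak in both libraries at every annotated TSS, and 27 of the 30 had at least 1 TSS without. The same count was not made over all genes, so it does not set the receptors apart. In 8 genes (Rara, Rarb, Rarg, Vdr, Esr1, Esrrb, Esrrg and Nr5a2) the 5′-most TSS was not open in both libraries and an internal one was. Over all genes, 13346 were open in both libraries at any TSS and 12357 at the 5′-most one. The open receptors had a median of 6 TSSs and all open genes a median of 5, and the part of TSS number was not tested. Some of the internal TSSs of the 8 genes lay far away. The Esrrg peaks of 1.07 and 2.18 were at TSSs 389036 and 389077 bp from the first. At the first Esrrg TSS replicate 2 alone had a peak, of 0.730. At Rarb the first TSSs were closed in both libraries, and all 5 TSSs between 243329 and 244111 bp downstream were open.

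In Rara, the first TSS had no peak, the TSS 9880 bp downstream had signals of 2.04 and 3.52, and that at 32594 bp had 1.65 and 3.76. In Vdr, 1 of 5 TSSs was open in both, 2320 bp from the first. In Nr5a2 the open TSSs were 10886 and 11275 bp from the first. Esr1 showed a split between libraries: its first TSS had 1.00 in replicate 2 and no peak in replicate 1. At the Esr1 TSS 98562 bp downstream both had one, of 0.401 and 0.545. Rora was open at its first TSS (1.35 and 2.30) and, with a higher signal, at one 635896 bp downstream (1.5 and 3.94).

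**Figure D2:**
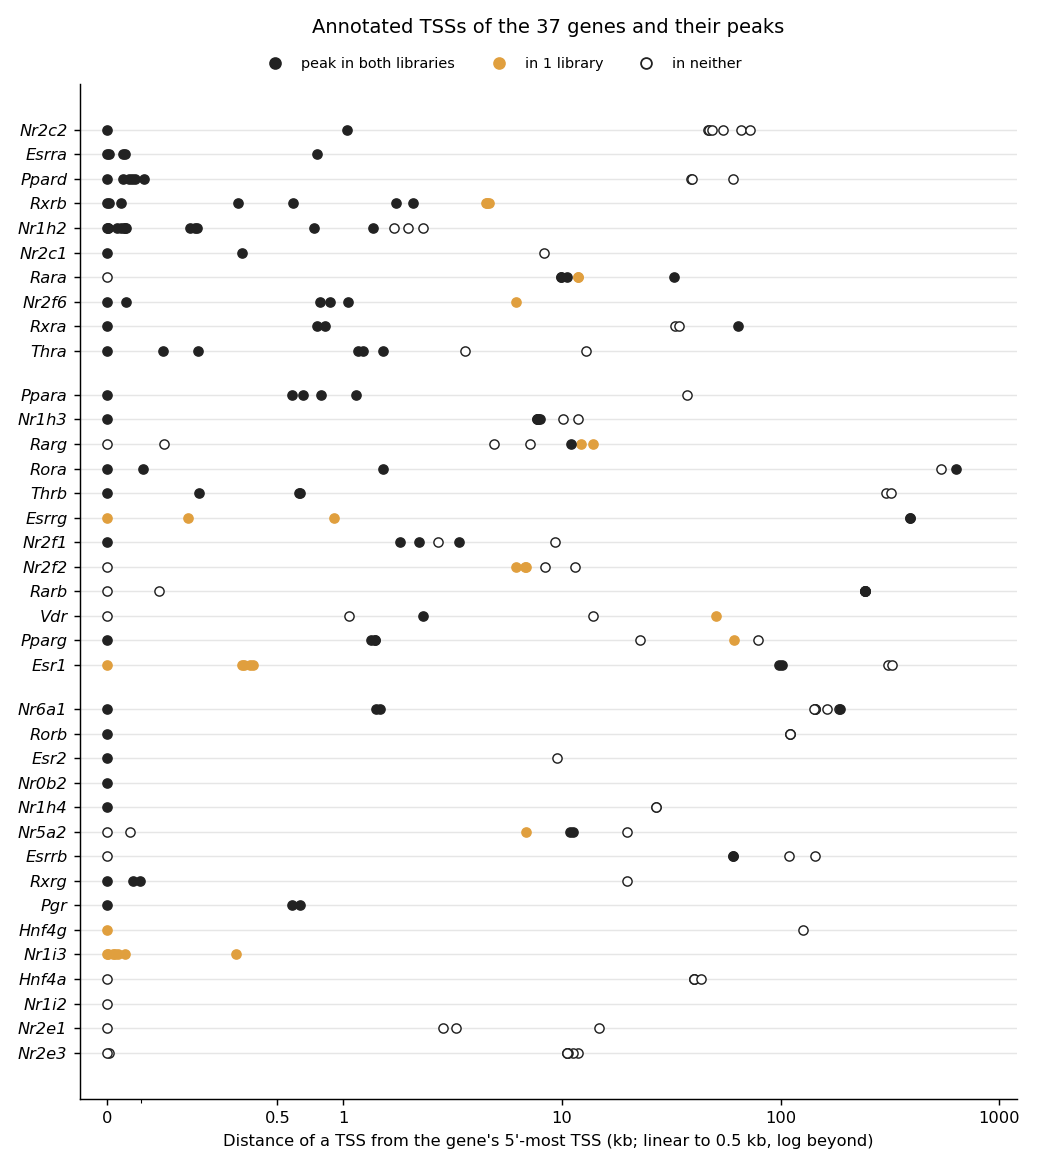
Every annotated TSS of the 37 genes by its distance from the gene's 5′-most TSS (kb, linear to 0.5 kb and log beyond). Black points had a peak in both libraries (110 of 220), orange points in 1 library and white points in neither. Genes such as Rarb, Rarg, Vdr and Nr5a2 have white points at 0 and black ones downstream.

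The CpG content of the promoters was measured as the observed over the expected number of CG dinucleotides, taking the TSS window with the highest ratio for each gene. The median was 0.648 over the 30 receptor genes open in both libraries and 0.332 over the 4 open in neither. Over all genes these medians were 0.642 and 0.191. Genes with more TSSs had more windows from which the highest ratio was taken. The median number of TSSs was 6 for the open and 4.5 for the closed receptors, and 5 and 2 over all genes. At the 5′-most TSS alone, the median ratio was 0.547 over the same 30 receptors and 0.313 over the 4 closed ones. Over all open genes it was 0.615, above that of the open receptors. The part of TSS number in these medians was not tested. Of 18 receptor genes with a ratio of at least 0.6, 16 (88.9%) were open in both, beside 94.7% of all such genes. Of 19 genes below 0.6, 14 (73.7%) were open, beside 40.2%. Of the 19 genes, 12 had ratios between 0.4 and 0.6, where all 12 were open and 75.3% to 88.8% of all genes were. How far the spread of the 19 ratios accounts for the 73.7% was not tested. From 0.2 to 0.3, 2 of 4 receptor genes were open, beside 14.8% of all genes, and from 0.3 to 0.4, 0 of 3, beside 40%. Nr2f2 (0.844) and Nr2e1 (0.767) were rich in CpG without a TSS peak in both libraries, and Nr0b2 (0.226) and Nr1h4 (0.276) were poor and open.

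RefSeq promoter sequences of GRCm38.p6, 250 bases before to 50 bases after a TSS, are shown for 4 genes at the corners of this relation, chosen after their values were seen. The table held 35 of the 37 genes. Capitals mark CG dinucleotides. Nr2f6 (chr8:71381903-71382202, minus strand) is open and rich in CpG, and Nr2e1 (chr10:42583541-42583840, minus strand) is rich and closed. Nr0b2 (chr4:133553126-133553425, plus strand) is poor and open, and Nr1i2 (chr16:38294775-38295074, minus strand) is poor and closed.
Nr2f6: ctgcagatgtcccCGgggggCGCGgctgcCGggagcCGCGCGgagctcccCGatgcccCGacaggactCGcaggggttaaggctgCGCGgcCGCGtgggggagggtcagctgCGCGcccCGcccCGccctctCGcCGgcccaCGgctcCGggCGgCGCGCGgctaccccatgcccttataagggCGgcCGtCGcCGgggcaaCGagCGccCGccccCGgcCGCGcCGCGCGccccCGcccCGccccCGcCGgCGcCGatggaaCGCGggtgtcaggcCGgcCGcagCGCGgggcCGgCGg
Nr2e1: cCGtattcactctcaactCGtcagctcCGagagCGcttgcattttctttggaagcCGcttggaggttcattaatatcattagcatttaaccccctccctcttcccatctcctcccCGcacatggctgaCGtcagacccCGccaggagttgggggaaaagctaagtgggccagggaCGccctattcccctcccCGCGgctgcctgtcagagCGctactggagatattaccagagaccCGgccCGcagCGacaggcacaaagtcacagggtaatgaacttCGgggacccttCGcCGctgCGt
Nr0b2: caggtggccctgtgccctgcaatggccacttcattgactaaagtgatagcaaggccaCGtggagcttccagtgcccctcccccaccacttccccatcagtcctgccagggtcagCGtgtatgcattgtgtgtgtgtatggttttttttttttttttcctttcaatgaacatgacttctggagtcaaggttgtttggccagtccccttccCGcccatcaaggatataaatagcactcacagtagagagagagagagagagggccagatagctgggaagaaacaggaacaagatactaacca
Nr1i2: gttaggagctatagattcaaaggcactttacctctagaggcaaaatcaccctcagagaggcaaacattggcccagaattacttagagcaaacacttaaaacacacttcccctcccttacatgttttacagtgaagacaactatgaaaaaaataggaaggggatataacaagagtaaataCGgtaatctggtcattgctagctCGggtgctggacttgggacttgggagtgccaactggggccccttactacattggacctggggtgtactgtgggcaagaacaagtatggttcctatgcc

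The 4 sequences held 53, 19, 3 and 2 CG dinucleotides in that order. Nr2e1 therefore had far more than Nr0b2 and no peak, while Nr0b2 had peaks of 1.14 and 1.61 over this stretch.

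**Figure D3:**
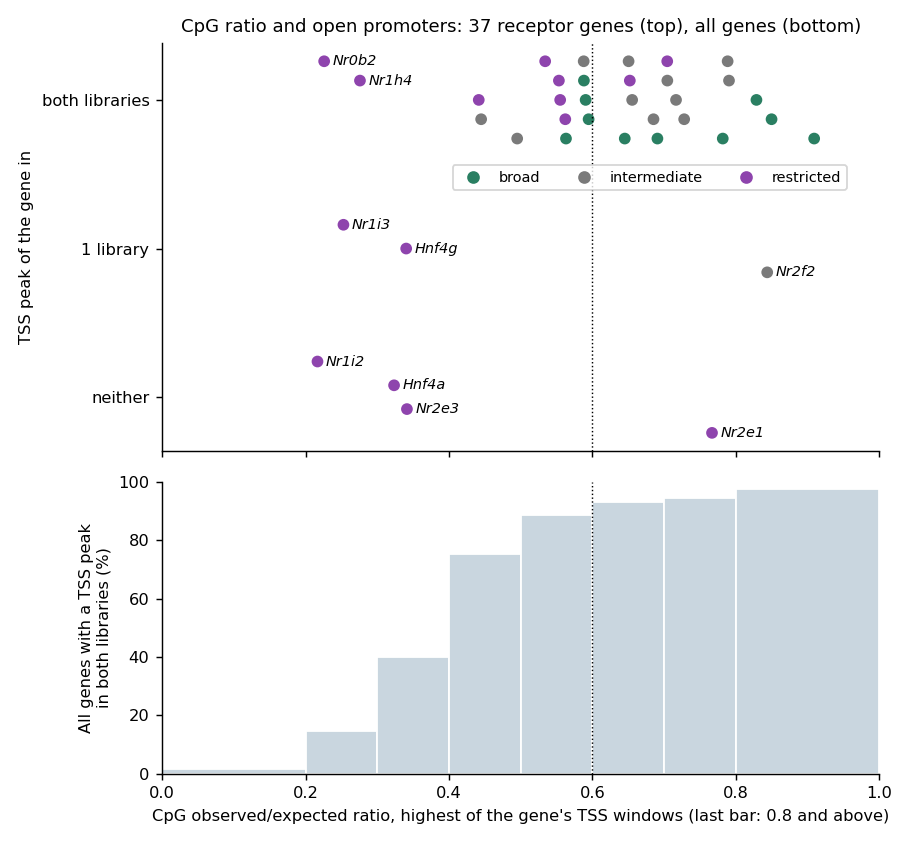
Top, CpG observed/expected ratio of each of the 37 genes (points coloured by breadth class) by the libraries in which it had a TSS peak. Bottom, the percentage of all genes with a TSS peak in both libraries in bins of the same ratio, rising from 1.8% to 97.4%, with the last bin starting at 0.8. The dotted line is at 0.6. Nr2f2 and Nr2e1 stand to its right without a TSS peak in both libraries.

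The genes without a TSS peak in both libraries differed in what surrounded them. Nr2e1 (TLX), a receptor of neural stem cells and retina, had no TSS peak. It had no position in its windows with a deposited false discovery rate below 0.05 in either library and no shared distal peak. Its nearest peak in replicate 1 was 66208 bp from a TSS. In replicate 2 a peak of 1.48 lay 6295 bp from one, inside the gene, without a replicate 1 peak over it. Nr1i2 was likewise without any such position, and its nearest peaks were 9937 and 11786 bp away. Of the 4 closed genes, 1, Nr2e3, had such a position, in replicate 2 (background 3.72% of the genes with no TSS peak).

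Nr2e3, the photoreceptor-specific receptor, had no TSS peak, yet a peak of 1.64 and 3.94 began 55 bp beyond the edge of its window in both libraries. This peak, at chr9:59959401-59959600, lay in an intron of Nr2e3 that is also within Gm15507. Hnf4a, the liver, gut and kidney receptor, was the other case. Its TSSs were closed, but 2 shared peaks lay in its introns, at chr2:163535001-163535180 with 1.79 and 6.49, and at chr2:163532061-163532200 with 1.44 and 4.65. Both also lay within the antisense gene Hnf4aos, and both were in the stricter lists and held footprints in both libraries. By mean signal the first ranked 683rd of 17072 shared distal peaks. Hnf4g had a single peak of 0.358, 44 bp wide, in replicate 1 alone.

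The Nr1i3 peak was one of many. Replicate 2 held a run of 69 peaks spaced by at most 2 kb at chr1:171189161-171227690, which covers Nr1i3, with a median signal of 0.220, of which 5 were overlapped by a replicate 1 peak. Within 60 kb of the first Nr1i3 TSS, replicate 1 had 8 peaks and replicate 2 had 83. The 0.308 at Nr1i3 in replicate 2 is at the 0.402th percentile of genes with a TSS peak, although 52 of the 69 peaks were in the stricter list. Runs of at least 20 such close peaks held 4.98% of all replicate 2 peaks and 0.395% of all replicate 1 peaks. In replicate 2, 7.52% of peaks in runs and 46.9% of the others were overlapped by replicate 1. The part of these runs in the Nr1i3 call was not tested. Smaller runs of replicate 2 lay within 10 kb of Thra, Ppara and Vdr. With the peaks of runs left out, 30 receptor genes were still open in both libraries (background 61.0%).

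**Figure D4:**
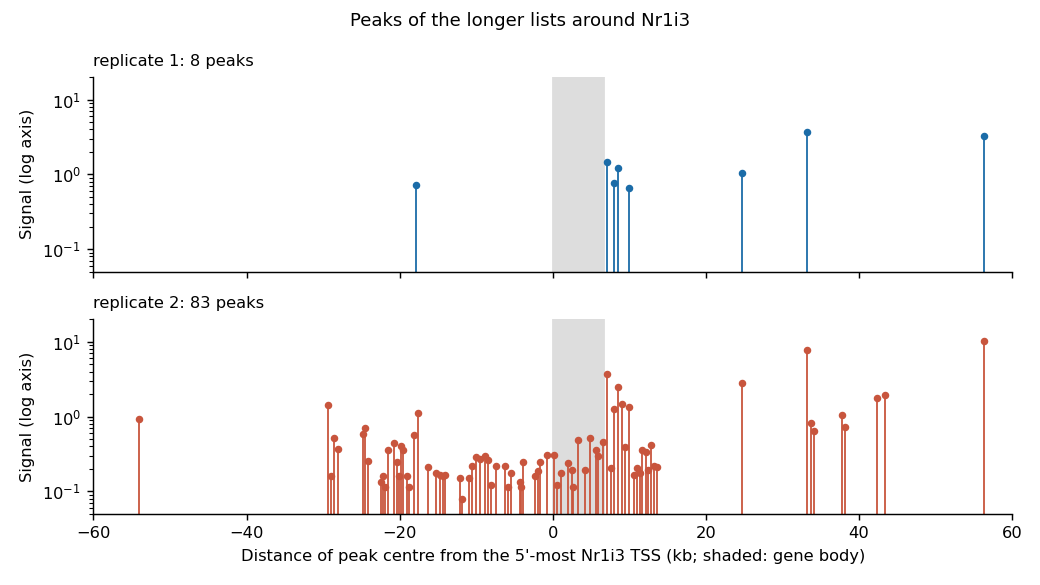
Signal (log axis) of each peak of the longer lists by its distance from the 5′-most Nr1i3 TSS (kb), replicate 1 above and replicate 2 below, with the gene body shaded. Replicate 1 has 8 peaks within 60 kb and replicate 2 has 83, most of them with a low signal.

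Away from promoters, 80 distal peaks shared by the libraries were nearest to a receptor gene, a mean of 2.16 per gene against 0.785 over all genes. A distal peak had its centre more than 1 kb from any TSS, and shared means a replicate 2 peak overlapped by a replicate 1 peak. At least 1 was found at 23 of 37 receptor genes (62.2%, background 38.5%). The receptors also had more DNA to themselves, a median of 88.8 kb nearer to their TSSs than to those of another protein-coding gene, against 44.6 kb over all genes. Per Mb of such DNA the receptors held 5.43 shared distal peaks and all genes 6.48. Hnf4g alone, with 4426 kb and no such peak, weighed on this, and without it the receptors held 7.76. No gene was left out of the value over all genes, so 7.76 and 6.48 are not like for like. This DNA was counted to the ends of each chromosome, with unsequenced stretches included. Hnf4g begins at base 3508030 of chromosome 3. The densities therefore do not show whether the receptors held more or fewer distal peaks than other genes. The peaks were much like others: their median signal over both libraries was 1.41, beside 1.43 for all shared distal peaks, and 43.8% were in both stricter lists, beside 50.4%. Of the 80, 43 lay within the gene they were nearest to. Without the demand that a peak be shared, replicate 1 held 102 distal peaks nearest to the receptors and replicate 2 held 289.

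The distal peaks were concentrated on few genes. Rora had 9, Rxra 8, and Ppara, Nr2f1 and Nr2f2 had 7 each. These 5 genes held 38 of the 80, and 1.02% of all genes had 7 or more. In the Nr2f1 count 3 of the 7 overlap one another, and 1 of those also reaches into a TSS window. A peak each of Thrb and Rarg likewise reaches into a TSS window. Neighbouring peaks carried the same replicate 1 value at Ppara (1.32) and at Rarg (1.15). With overlapping peaks merged, a count added after seeing the data, Nr2f1 had 5 and the family 78, a mean of 2.11 beside 0.782 over all genes. The peaks named at Thrb, Rarg and Ppara all stayed in that count. Esrrg followed with 6 and Rara with 5. The 10 broad genes held 18 in all, the 12 intermediate ones 48 and the 15 restricted ones 14. The median length of DNA nearest to their TSSs was 31.9 kb for broad, 571 kb for intermediate and 91.4 kb for restricted genes. The part of this length in the class totals was not tested. Of the 4 genes with the strongest TSS peaks, Nr2c2, Esrra and Rxrb had no shared distal peak and Ppard had 3.

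Ranked by the mean of both libraries, in which the higher values of replicate 2 weigh more, the strongest of the family was at Ppara, 25.5 kb from its TSS at chr15:85709421-85709600, with signals of 2.19 and 6.70 (rank 504 of 17072). In replicate 1 another Ppara peak, at chr15:85671021-85671320, was higher, with 2.98 and 3.34. By the same mean, the strongest of Rxra, at chr2:27772001-27772180, gave 1.79 and 5.44 and was 31.9 kb from the TSS, between genes. In replicate 1 the Rxra peak at chr2:27765021-27765180 was higher, with 2.15 and 4.56. That of Nr2f2 by mean was the peak just outside its window, and one at chr7:70335021-70335220 was higher in replicate 2 (1.78 and 4.26). In Rora, the strongest was in an intron at chr9:69259441-69259640, with 1.27 and 2.82. At Nr2f1 it was in an intron of Fam172a at chr13:78163101-78163280, with 0.938 and 1.92. At Esrrg it was 156 kb from the TSS at chr1:187452301-187452480, with 0.827 and 1.90, and a peak in Esrrg at chr1:188118241-188118400 was higher in replicate 1 (0.955 and 1.72). The peaks of Rora, Nr2f1 and Esrrg were thus weaker than the single intronic peaks of Hnf4a.

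**Figure D5:**
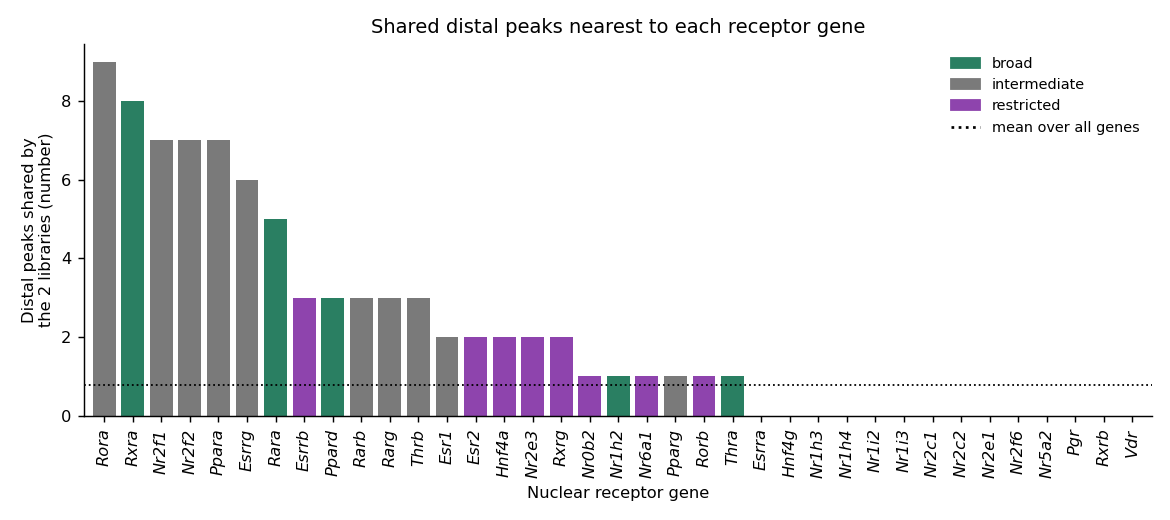
Number of distal peaks shared by the 2 libraries and nearest to each of the 37 genes, coloured by breadth class. The dotted line is the mean over all genes, 0.785. Rora has 9 and Rxra 8, and 14 genes have none.

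Footprints lay in the TSS windows of 28 of 37 receptor genes in both libraries (background 59.0%). This background is not matched for the number of TSSs, whose median was 6 for the receptors and 3 over all genes. The windows held 166 footprints in replicate 1 and 200 in replicate 2, of which 150 and 181 lay in peaks. At the level of single footprints the libraries shared fewer: 70 of 166 (42.2%) and 67 of 200 (33.5%) were overlapped by one of the other library. The same shares were not computed over the footprints of all genes, so they do not set the receptors apart. Rora held the most, 17 in each library. Nr2f1 held 12 and 11, Rxra 11 and 11, and Rxrb 7 and 15. Esrrb and Rxrg were the genes open in both libraries without a footprint in both.

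The windows of 300 bases centred on each peak were searched on both strands for short motifs. The nuclear receptor core motif AGGTCA was in 3 of 30 TSS peak windows, those of Esr1, Nr1h4 and Thrb (10.0%, beside 10.2% of all genes' TSS peak windows). It was in 15 of 80 distal windows (18.8%, beside 20% of all). The extended motif TCAAGGTCA, the direct repeats of AGGTCA spaced by 1 and by 4 bases and its palindrome spaced by 3 bases, all of which contain AGGTCA, were in 0 of either set. Each was in under 1% of all windows. The GC box GGGCGG was in 18 of 30 TSS peak windows (60%, beside 71.8%) and in 23 of 80 distal windows (28.7%, beside 17.5%). The CCAAT box was in 9 (30%, beside 37.1%), the ETS site CCGGAAG in 3 (10.0%, beside 18.9%) and the NRF1 site in 2 (6.67%, beside 11.9%). The cAMP response element TGACGTCA was in 0 (3.84% of all), the AP-1 site TGANTCA in 2 (6.67%, beside 3.52%) and the E-box CACGTG in 1 (3.33%, beside 10.3%). A match describes letters in a window and nothing more.

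Genes that work with the receptors were called in the same way, against the background of 61.3% for a TSS peak in both libraries and 54.8% in both stricter lists. Genes of each list are named by their mean signal over both libraries. Of 8 corepressor genes, all 8 were open in both libraries and in both stricter lists, led by Hdac3 (3.44 and 7.38), Sin3a (3.15 and 6.97) and Gps2 (2.65 and 5.15). In replicate 1 Tbl1xr1 (2.81) exceeded Gps2. Of 12 coactivator genes 11 were open. These 20 genes had a median of 8 TSSs, and 90.1% of all genes with 6 or more were open. The coactivators were led by Carm1 (5.00 and 11.7), Kmt2c (4.51 and 8.97) and Ncoa2 (3.62 and 9.29). The exception was Ppargc1a, the inducible coactivator PGC-1 alpha, with 0.367 in replicate 1 alone. Among 17 genes that supply or remove ligands, 8 were open in both. The retinaldehyde- and retinoic acid-making genes Rdh10 (2.28 and 4.66) and Aldh1a2 (1.45 and 3.14) led them, followed by the thyroid hormone-inactivating Dio3 (1.36 and 2.14). Dio1, Cyp26a1 and Crabp1 were among 6 with no TSS peak in either library.

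Of 16 known target genes 10 were open in both. The liver X receptor targets Mylip (3.61 and 8.78), Srebf1 (3.10 and 6.25) and Abca1 (2.20 and 6.30) had the highest means. Another such target in the list, Abcg1, had a TSS peak in replicate 2 alone (0.730), which was not in the stricter list. In replicate 1 Cpt1a (2.89) and Klf9 (2.49) exceeded Abca1. Cyp7a1, Abcb11, Cyp3a11 and Cyp2b10, genes of bile acid and drug handling in liver, had no TSS peak. Of the 5 steroid receptor relatives all were open in both libraries. Nr5a1 gave 1.77 and 5.07, Nr3c1 (the glucocorticoid receptor) 2.35 and 6.84, and Nr3c2 (the mineralocorticoid receptor) 3.55 and 6.03. Nr2c2, Esrra, Ppard and Rxrb thus had higher signals in both libraries than each of these 3.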

How the data were processed

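DNase-seq peak lists, footprint lists and lists of local cut rates were deposited per library on mm10, per the labels; tools, filters and read depth were not given in the sources used here. Peak signal, as deposited, is the authors' own value. The deposited footprint and cut-rate lists hold p-values or false discovery rates (0.01 in every footprint entry, under 0.05 in the other).

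GENCODE M21 TSSs and the GRCm38.p6 sequence were used, with Python 3.11.15, numpy 2.4.6 and pandas 2.3.3. A gene was open when a peak overlapped a window of 1 kb to either side of any TSS by at least 1 bp. Distal peaks were assigned by peak centre to the nearest protein-coding TSS. There is 1 group, so no test was made. The counting and overlap steps were tested on simulated intervals. Genes to be named were the 37 members, the 3 strongest and up to 4 closed of each pathway list, and the strongest distal peak of the 6 members with most. Members, breadth classes and lists were chosen with earlier results of these data known. The alternatives were the stricter lists, other windows, TSS sets and overlaps, equal peak numbers, and each library alone.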

Additional observations from a re-analysis of the deposited data

How the results depend on the processing

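The count of receptor genes with a TSS peak in both libraries (30) stayed between 22 and 33 under 11 alternatives, the lowest with the 5′-most TSS alone and the highest with a peak in either library. The footprint count (28) stayed between 21 and 31 under 8. Shared distal peaks (80) fell to 35 in the stricter lists and ranged from 102 to 289 with either library alone, which counts unshared peaks; other alternatives gave 64 to 78. Median CpG ratio of open minus closed receptors (0.315) moved by more than the spread between libraries under most alternatives and stayed positive under all run: 0.307 to 0.313 with either library alone, 0.309 in the stricter lists, 0.322 with equal peak numbers, 0.338 with TSSs of protein-coding transcripts, 0.285 with the 5′-most TSS, 0.379 over 500 bp to either side, and 0.324 without runs of close peaks, an alternative chosen after seeing the data. The cause was not tested. It rests on 4 closed genes. Unknown depth limits weak peaks, such as those of Hnf4g, Pgr and Rxrg. No paired analysis was possible because there is 1 group.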
